A study of Mus musculus with 8 samples.

Results

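The translation initiation and elongation factors are the cytosolic proteins that load ribosomes onto messenger RNA, find the start codon and then move the ribosome along the coding sequence. Their transcripts were followed by RNA-seq in the livers of 4 male Pcx L-/- and 4 male control mice, with 1 library per mouse. Members were taken by symbol alone, as protein-coding genes of the GENCODE M21 annotation whose symbols begin with Eif1 to Eif6, Eef1 or Eef2. The kinases of eIF2, the eIF4E-binding proteins, Eef1e1 and pseudogene symbols were left out of the set. The rule found 60 genes, of which 59 were among the 35275 genes of the deposited count table, and Eef1akmt4 was not analysed here. Reads fell on 58 of the 59 genes, and 56 had enough reads to be compared between genotypes. Eef1a2, the form of eEF1A known from muscle and neurons, had 7 reads over the 8 libraries, Eif4e1b had 0 and Eef1akmt3 had 14, so these 3 members were not tested. The 0 reads of Eif4e1b allow an expected total of up to 3 reads over the 8 libraries together (95% limit).

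The Pcx L-/- mice lack pyruvate carboxylase in hepatocytes, through an Albumin-Cre transgene acting on a floxed exon of Pcx. The controls, called WT in the labels, were littermates that carried the floxed allele (Pcx f/f) without deletion. All mice were C57BL/6, 9 weeks old and fasted for 24 h before the liver was taken. Albumin-Cre acts in hepatocytes, whereas whole liver RNA also comes from the other cells of the organ, so that fewer cells of a type and less RNA per cell cannot be told apart.

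In initiation, eIF2 carries the initiator tRNA to the small ribosomal subunit, where eIF1, eIF1A, eIF3 and eIF5 help it to find the start codon. The eIF4 proteins bind the cap of the messenger and open its leader, and eIF2B recharges eIF2 with GTP for the next round. In elongation, eEF1A brings each aminoacyl-tRNA to the ribosome, eEF1B recharges eEF1A, and eEF2 moves the ribosome by 1 codon. Several of their messengers, those of the elongation factors among them, begin with a terminal oligopyrimidine tract, through which their own translation follows the nutrient-sensing kinase mTORC1. Phosphorylation of eIF2 by stress-sensing kinases lowers initiation in general.

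Libraries held between 12016242 reads (WT replicate 4) and 20023108 reads on genes. The TMM factors, which adjust library size for composition, were between 0.833 and 0.942 in the WT mice, 0.970 in Pcx L-/- replicate 1 and between 1.14 and 1.16 in Pcx L-/- replicates 2 to 4. Pcx, the deleted gene, was at 19802, 14371, 19513 and 22059 normalized counts in WT and 758, 556, 678 and 732 in Pcx L-/- mice, so every library matched its label. WT replicate 4 had the fewest reads and the lowest TMM factor, and Pcx L-/- replicate 1 stood apart from the other 3 mice of its group. Of the 6 hepatocyte markers (Alb, Apoa1, Ttr, Cps1, Tat and Serpina1c), 1 was called lower (Apoa1), 0 were called higher and none was at 0. All 6 had negative log2 fold changes (Pcx L-/- over WT), from -1.04 to -0.43, with a median of -0.57. Their summed FPKM was 44599.6 to 48254 in WT and 31827 to 40344 in Pcx L-/- liver. Relative to the WT mean, the mean log2 level of these markers was -0.15 in Pcx L-/- replicate 1 and -0.90, -0.72 and -0.75 in replicates 2 to 4. The 5 red blood cell genes had a summed FPKM of 317 to 1231 in WT and 559 to 5338 in Pcx L-/- mice, with the highest value in Pcx L-/- replicate 1, and 0 of them passed the test. In the other 9 lists of cell type markers, 32 of 47 genes were tested, of which Cd68 and Cela1 rose and Sox9 fell. Ly6g and Acta1 had no reads and were not tested. Among those of these 9 lists with more than 1 gene tested, the median log2 fold change ran from -0.47 (cholangiocyte) to 0.28 (lymphocyte). The neutrophil and pancreas lists had 1 gene tested each, at 1.40 (not called) and 0.70 (called). All 5 cholangiocyte markers had negative values, from -0.79 to -0.37, and 1 of them was called.

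Many transcripts of the translation factors were higher in Pcx L-/- liver, in every role group but eEF2 and mostly by less than 2-fold. Of the 56 members tested, 34 were higher at an adjusted p under 0.05 and 0 were lower (edgeR quasi-likelihood test, Benjamini-Hochberg adjustment over all 13168 genes tested). Across all genes tested, 14.1% were called higher, 13.5% lower and 27.6% in either direction. No member was lower at an unadjusted p under 0.05 either, and DESeq2 also called 0 lower and 35 higher. The log2 fold change (Pcx L-/- over WT) was positive for 52 members and negative for 4, with a median of 0.43 beside -0.01 over all genes tested. The set was chosen with earlier results of these data known, so these counts and the median are descriptions only. Eif3g and Eef1akmt1 were the 2 members above 2-fold. All 4 Pcx L-/- mice lay above all 4 WT mice for 34 members, where 15.1% of all genes tested had this pattern. Of the 34 members called higher 32 had it, the exceptions being Eif2b4 and Eif2b5, and it was also seen for Eef1a1 and Eif3j2, which did not pass the test. With library size alone in place of TMM, 47 members were higher and 0 lower, and 81.8% of the calls over all genes were higher, beside 51.1% with TMM. The plot of log2 fold changes shows the members by role.

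**Figure D1:**
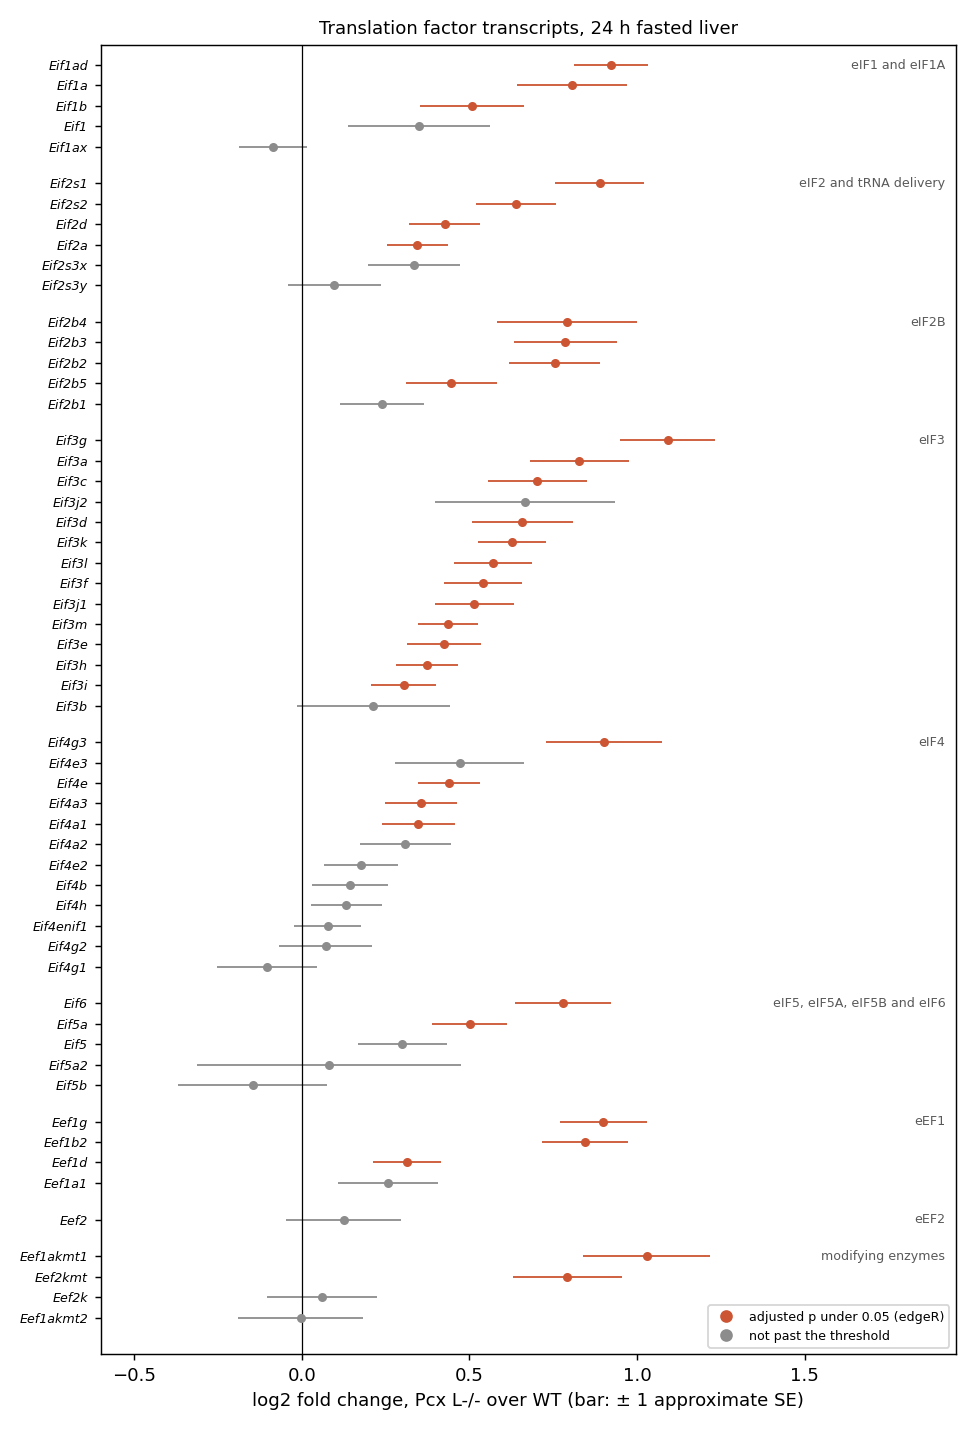
Log2 fold change (x axis, Pcx L-/- over WT, with bars of 1 approximate standard error) of the 56 members tested, grouped by role, with red points at an adjusted p under 0.05 by edgeR and grey points otherwise (n = 4 mice per genotype). All 34 red points lie to the right of 0, and the lowest value, for Eif5b, is -0.15.

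The factors differ widely in level, which is compared here in FPKM (reads scaled to the length of the gene and the total of the library). Eef1a1, which encodes the main form of eEF1A, was the highest at 2301 ± 272 FPKM in WT and 3357 ± 364 in Pcx L-/- liver (SD, n = 4 mice each). Eef2 came next at 617 ± 98.5 and 830.2 ± 121 FPKM, followed by Eif5a at 217 ± 24.7 and 374 ± 35.8 and Eif1 at 232 ± 77.4 and 356 ± 38.0. Eef1a1 and Eef2 together made up between 54.9% and 61.6% of the summed FPKM of all members in the 8 mice. The summed FPKM of the members was between 4648 and 5402 in the WT mice, 6128 in Pcx L-/- replicate 1 and between 7853 and 8168 in Pcx L-/- replicates 2 to 4. In reads, the members took 1.09% to 1.21% of a WT library, 1.37% of Pcx L-/- replicate 1 and 1.77% to 1.83% of the other 3. Neither these sums nor the FPKM of single genes are adjusted for composition as the TMM-scaled counts are. On TMM-scaled counts the log2 fold changes of Eef1a1 and Eef2 were 0.26 and 0.12, and neither passed the test.

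**Figure D2:**
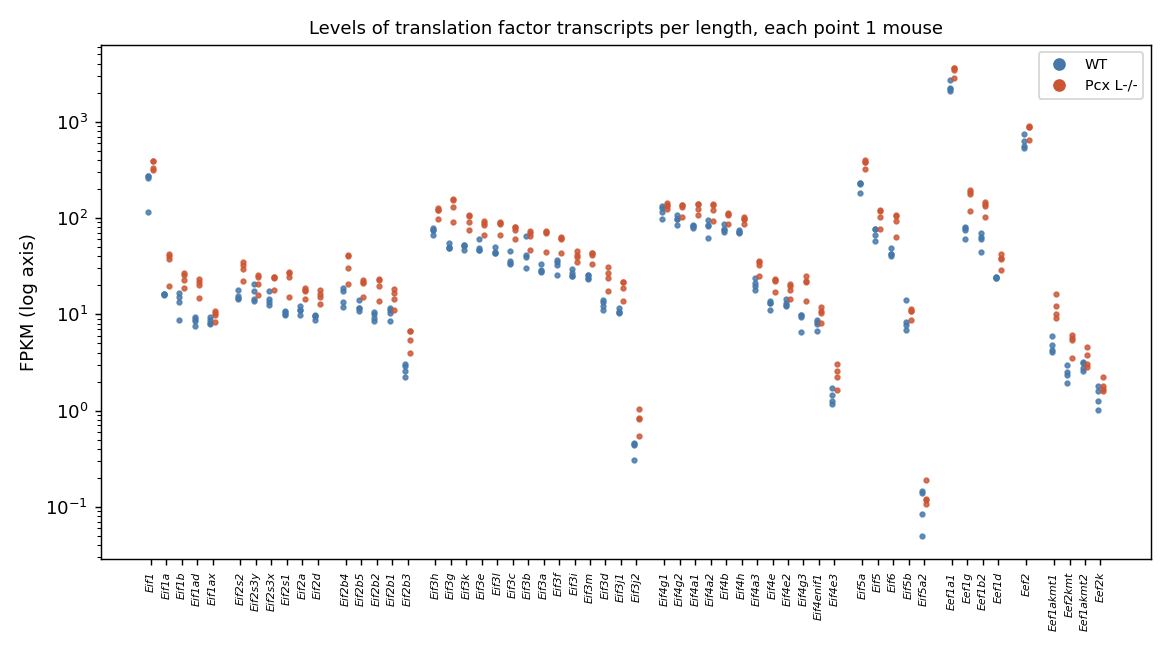
FPKM (log axis) of the 56 members tested in each mouse, ordered within each role by mean level, with 4 WT mice in blue and 4 Pcx L-/- mice in red. Levels run from Eif5a2, under 1 FPKM in every mouse, to Eef1a1, the highest in every mouse.

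Promoter sequences were examined because so many members moved the same way. RefSeq promoters of GRCm38.p6, from 250 bases before to 50 after the start, were at hand for 45 members, in 59 promoters. They were searched on both strands for 3 short motifs, each counted on its own, overlapping matches included. The E-box CACGTG, bound by factors such as Myc and USF, was in 23.7% of the 59 promoters, beside 9.68% of the promoters of all genes tested and 7.15% of all promoters in the table. The ETS core CCGGAAG was in 30.5% of them, beside 16.6% and 8.86%. The C/EBP-ATF response element TGATGNAA, through which ATF4 acts, was in 3.39% of them, beside 2.29% and 3.97%. These shares are descriptions of the letters only, with no test. Of the 45 members with a promoter, 25 rose. The E-box was found at 12 members, of which 7 rose, and the ETS core at 15, of which 11 rose. TGATGNAA was found at Eif2s3x and Eef2k, of which neither passed the test.

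The promoters below are the 250 bases before the start, 5′ to 3′ on the strand of the gene, from RefSeq on GRCm38.p6, with the motif in capitals. For each motif they were picked among the tested members with a single promoter in the table, for a high log2 fold change. They show an E-box at 2 eIF3 members, the ETS core at the members that rose most in eIF3 and in the eIF1 group, and the response element at Eif2s3x.
Eif3k (chr7:28981889-28982138, minus strand): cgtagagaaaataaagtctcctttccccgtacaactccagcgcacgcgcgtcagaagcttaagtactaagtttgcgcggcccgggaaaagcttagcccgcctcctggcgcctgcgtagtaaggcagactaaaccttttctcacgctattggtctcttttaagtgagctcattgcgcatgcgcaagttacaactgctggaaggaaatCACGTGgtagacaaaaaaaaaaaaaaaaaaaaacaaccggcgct
Eif3f (chr7:108934165-108934414, plus strand): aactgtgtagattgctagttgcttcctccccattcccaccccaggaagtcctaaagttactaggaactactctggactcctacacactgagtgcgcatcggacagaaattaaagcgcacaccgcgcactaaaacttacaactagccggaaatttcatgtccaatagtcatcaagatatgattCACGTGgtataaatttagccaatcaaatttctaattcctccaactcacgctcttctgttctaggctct
Eif3g (chr9:20898591-20898840, minus strand): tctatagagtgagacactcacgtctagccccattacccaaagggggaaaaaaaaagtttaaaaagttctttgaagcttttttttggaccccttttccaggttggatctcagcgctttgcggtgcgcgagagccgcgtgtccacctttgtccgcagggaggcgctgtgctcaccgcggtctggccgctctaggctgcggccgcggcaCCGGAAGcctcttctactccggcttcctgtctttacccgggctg
Eif1ad (chr19:5366563-5366812, plus strand): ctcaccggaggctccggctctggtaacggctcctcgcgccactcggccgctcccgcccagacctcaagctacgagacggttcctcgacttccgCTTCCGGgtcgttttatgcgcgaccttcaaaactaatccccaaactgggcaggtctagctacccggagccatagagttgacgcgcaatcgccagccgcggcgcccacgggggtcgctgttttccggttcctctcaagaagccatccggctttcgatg
Eif2s3x (chrX:94212652-94212901, minus strand): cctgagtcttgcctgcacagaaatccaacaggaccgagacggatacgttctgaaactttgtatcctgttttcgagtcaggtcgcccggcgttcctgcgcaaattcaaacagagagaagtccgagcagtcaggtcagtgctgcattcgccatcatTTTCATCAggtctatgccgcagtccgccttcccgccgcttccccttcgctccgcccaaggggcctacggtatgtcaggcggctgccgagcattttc
The first base of the E-box lies 44 bases before the start of Eif3k and 68 before that of Eif3f. The ETS core lies 44 bases before the start of Eif3g and, in reverse, 157 before that of Eif1ad. The response element lies in reverse 96 bases before the start of Eif2s3x.

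Normalized counts, used from here on, are reads set to a common library size after TMM (the geometric mean of the 8), so they compare mice and not genes. Values are given in the order of replicates 1 to 4, changes are log2 fold changes with their approximate standard errors, and adjusted p-values are those of edgeR over all genes tested.

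The eIF3 group, which encodes the scaffold that holds the other initiation factors on the small ribosomal subunit, had 14 members tested, of which 12 rose and 0 fell, with a median log2 fold change of 0.56. The strongest change among them was that of Eif3g, whose product is an RNA-binding subunit and whose promoter is among those printed above. Its normalized counts were 959.5, 968, 962 and 1195 in WT mice and 1709, 2404, 2037 and 2545 in Pcx L-/- mice. The groups were far apart, and the change was 1.09 ± 0.14 (adjusted p = 0.00082). Eif3a, the largest subunit, was at 2590.0, 2606, 2755 and 3505 in WT and 3999.9, 5403, 5534 and 5389.9 in Pcx L-/- mice, a change of 0.83 ± 0.15 (adjusted p = 0.00309). Eif3c, the other subunit of the core beside Eif3a, was at 2115, 2031, 2213 and 3109 in WT and 3545, 3745, 4005 and 4102 in Pcx L-/- mice, a change of 0.70 ± 0.15 (adjusted p = 0.00618). In both genes WT replicate 4 was the highest of its group, and Pcx L-/- replicate 1 the lowest of its own, yet still above every WT mouse. Eif3d encodes the subunit that can itself bind the cap of some messengers. It was counted at 419.7, 380.3, 474 and 543 in WT and 579, 740.4, 662 and 879 in Pcx L-/- mice, a change of 0.66 ± 0.15 (adjusted p = 0.00919). An opposite-strand gene overlaps 43.3% of the exonic bases of Eif3d, and with the use of strand in counting not given in the labels or the study's methods, reads of the 2 genes cannot be told apart.

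The subunits Eif3e, Eif3f, Eif3h, Eif3k, Eif3l and Eif3m form the arm of the complex built of related domains, and all 6 rose. Eif3k was at 714, 728, 745 and 726 in WT and 1021, 1028, 1233 and 1220.5 in Pcx L-/- mice, and rose by 0.63 ± 0.10 (adjusted p = 0.00187). Its partner Eif3l was at 1547, 1488, 1494 and 1926 in WT and 2184, 2385, 2504 and 2502 in Pcx L-/- mice, and rose by 0.57 ± 0.12 (adjusted p = 0.00559). The genotypes did not overlap in either. Eif3f was at 1666, 1589, 1495 and 1312 in WT and 1885, 2323, 2259.8 and 2349.6 in Pcx L-/- mice, a rise of 0.54 ± 0.12 (adjusted p = 0.00722). Eif3m was at 909, 902, 853 and 923 in WT and 1149, 1235, 1197 and 1273 in Pcx L-/- mice, a rise of 0.44 ± 0.09 (adjusted p = 0.0056). For both genes Pcx L-/- replicate 4 was the highest and replicate 1 the lowest of the Pcx L-/- mice. Eif3e was at 1366, 1675, 1316 and 1466 in WT and 1790.0, 1977, 1922 and 2121 in Pcx L-/- mice, a rise of 0.42 ± 0.11 (adjusted p = 0.0165). Eif3h, the subunit gene with the highest mean FPKM, was at 1712, 1759, 1727 and 1687 in WT and 2146, 2222, 2205 and 2356 in Pcx L-/- mice, a rise of 0.37 ± 0.09 (adjusted p = 0.0128). The WT mice of Eif3h lay within a narrow band below all Pcx L-/- mice. Eif3e did not pass without any 1 of WT replicates 1 or 3 or Pcx L-/- replicate 4 (adjusted p between 0.0555 and 0.0614), nor did Eif3h without Pcx L-/- replicate 4 (adjusted p = 0.0507).

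Of the remaining eIF3 members, Eif3i rose slightly, Eif3j1 rose, and Eif3b and Eif3j2 did not pass the test. Eif3i, which works in a module with Eif3b and Eif3g, was at 1142, 1227, 1079 and 1191 in WT and 1414, 1329, 1413 and 1572 in Pcx L-/- mice, a change of 0.30 ± 0.10 (adjusted p = 0.0375). The call for Eif3i was lost without any 1 of WT replicates 1 or 3 or Pcx L-/- replicates 2, 3 or 4 (adjusted p between 0.0576 and 0.128). Eif3b was at 2138, 1632, 2255 and 3902 in WT and 2440.1, 3015, 2821 and 3221 in Pcx L-/- mice, with a change of 0.21 ± 0.23 (adjusted p = 0.523). WT replicate 4 was above all Pcx L-/- mice for Eif3b, and without it the gene passed (log2 0.52, adjusted p = 0.0245). Eif3j1 and Eif3j2 are near-identical copies of the gene for a loosely bound subunit, with 47.6% and 84.0% of their 100-base stretches found in transcripts of other genes, so the split of reads between them is uncertain. Eif3j1 was at 1021, 1019, 1152 and 1178 in WT and 1302, 1707, 1497 and 1733 in Pcx L-/- mice, a change of 0.51 ± 0.12 (adjusted p = 0.0091). Spg11 overlaps 19.0% of its exonic bases on the opposite strand. Eif3j2 was low, at 19.1, 13.0, 20.4 and 22.1 in WT and 22.6, 28.2, 36.5 and 29.8 in Pcx L-/- mice, and its change of 0.66 ± 0.27 did not pass (adjusted p = 0.0887).

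**Figure D3:**
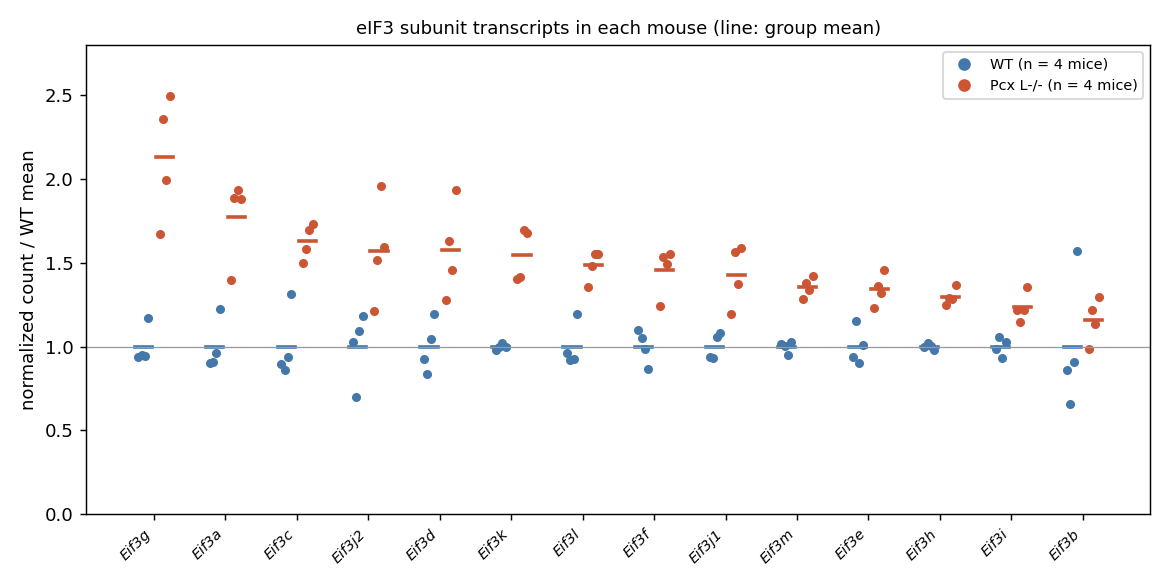
Normalized counts of the 14 eIF3 members in each mouse, divided by the WT mean of the gene (y axis), with points for 4 WT (blue) and 4 Pcx L-/- (red) mice and lines for group means. The Pcx L-/- points of 13 members lie above all WT points, and for Eif3b WT replicate 4 is the highest of the 8 mice.

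The eIF2 group and its exchange factor eIF2B control how much initiator tRNA reaches ribosomes. Of 6 genes of eIF2 and tRNA delivery 4 rose and 0 fell, and of 5 eIF2B genes 4 rose and 0 fell, with medians of 0.39 and 0.75. Eif2s1, the alpha subunit and the site of inhibitory phosphorylation, was at 631, 648, 687 and 675 in WT and 912, 1366, 1230.2 and 1379 in Pcx L-/- mice. Its rise of 0.89 ± 0.13 (adjusted p = 0.00135) was the largest among the eIF2 genes. Eif2s2, the beta subunit and the highest of these genes in mean FPKM, was at 1095, 1313, 1159 and 1212 in WT and 1576, 1946, 1777 and 2141 in Pcx L-/- mice, a rise of 0.64 ± 0.12 (adjusted p = 0.00361). The gamma subunit, which binds GTP and the tRNA, is made from Eif2s3x on the X and Eif2s3y on the Y chromosome. Eif2s3x was at 833, 954, 906 and 1300.0 in WT and 1143, 1256, 1303 and 1324 in Pcx L-/- mice, with a change of 0.33 ± 0.14 that did not pass (adjusted p = 0.0952). WT replicate 4 lay among the Pcx L-/- mice, and without it Eif2s3x passed (log2 0.48, adjusted p = 0.00697). Of Eif2s3x, 35.3% of the 100-base stretches also occur in Gm2223, and of Eif2s3y 0% occur in other genes. Eif2s3y had a change of 0.10 ± 0.14 (adjusted p = 0.65), with overlapping groups. Eif2a and Eif2d encode proteins that can bring tRNA to the ribosome without eIF2. Eif2a was at 690.0, 759.6, 695 and 682 in WT and 862, 869, 899.7 and 960.5 in Pcx L-/- mice, a change of 0.34 ± 0.09 (adjusted p = 0.0178). Eif2d was at 621, 545, 606 and 674 in WT and 775, 766, 824 and 918 in Pcx L-/- mice, a change of 0.43 ± 0.11 (adjusted p = 0.013). Neither gene overlapped between genotypes, but Eif2a was not called without any 1 of WT replicates 1 or 3 or Pcx L-/- replicates 3 or 4 (adjusted p between 0.0513 and 0.0666), nor Eif2d without Pcx L-/- replicate 4 (adjusted p = 0.0506).

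Within eIF2B, the catalytic subunits are encoded by Eif2b3 and Eif2b5 and the regulatory ones by Eif2b1, Eif2b2 and Eif2b4. Eif2b3 was at 208, 153, 199.9 and 195 in WT and 259, 370.2, 297 and 377 in Pcx L-/- mice, a rise of 0.79 ± 0.15 (adjusted p = 0.00455). Eif2b2 was at 312, 293, 249 and 299 in WT and 386, 537, 461 and 561 in Pcx L-/- mice, a rise of 0.75 ± 0.14 (adjusted p = 0.00312). In both genes Pcx L-/- replicate 1 was the closest to WT, and the groups did not overlap. Eif2b4, with the largest change and the highest mean FPKM of the group, was at 497, 432, 646 and 782 in WT and 732, 1202, 895 and 1236 in Pcx L-/- mice, a rise of 0.79 ± 0.21 (adjusted p = 0.0174). Eif2b5 was at 667, 624, 675 and 918 in WT and 850.2, 1012, 985 and 1074 in Pcx L-/- mice, a rise of 0.45 ± 0.14 (adjusted p = 0.0307). For these 2 genes WT replicate 4 lay above Pcx L-/- replicate 1. Eif2b4 did not pass without any 1 of WT replicate 1 or Pcx L-/- replicates 2 or 4 (adjusted p between 0.0544 and 0.0604), and Eif2b5 did not pass without any 1 of WT replicates 1, 2 or 3 or Pcx L-/- replicates 2, 3 or 4 (adjusted p between 0.0713 and 0.0963). Eif2b1 was at 406, 371, 435 and 351 in WT and 389.7, 534, 422 and 501 in Pcx L-/- mice, with a change of 0.24 ± 0.13 (adjusted p = 0.188).

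The 5 genes of the eIF1 and eIF1A group, whose products help the small subunit to find the start codon, split into 3 that rose and 2 that did not pass, with a median of 0.51. Eif1ad, a gene with an eIF1A-like domain, was at 382, 401, 428 and 378 in WT and 641, 846, 736 and 789 in Pcx L-/- mice. Its change of 0.92 ± 0.11 (adjusted p = 0.000699) was the largest of the group, and 15.3% of its exonic bases are overlapped on the opposite strand by Banf1. Eif1a, an autosomal gene for eIF1A, was at 842, 843, 861 and 935 in WT and 995, 1783, 1576 and 1729 in Pcx L-/- mice, a change of 0.81 ± 0.16 (adjusted p = 0.00558). Pcx L-/- replicate 1 was close to WT replicate 4 for Eif1a, and the other 3 Pcx L-/- mice were much higher. The X-linked gene for eIF1A, Eif1ax, had a change of -0.09 ± 0.10 (adjusted p = 0.568) with full overlap of the groups. Eif1, by far the highest of the group in FPKM, was at 6315, 6575, 6651 and 3126 in WT and 7323, 7509, 6414 and 7646 in Pcx L-/- mice, a change of 0.35 ± 0.21 that did not pass (adjusted p = 0.252). WT replicate 4 was much lower than the other 7 mice for Eif1. Its paralog Eif1b was at 280.4, 220.0, 256 and 163 in WT and 304, 355, 307 and 351 in Pcx L-/- mice, a change of 0.51 ± 0.16 (adjusted p = 0.0322). Eif1b did not pass without any 1 of WT replicate 2 or Pcx L-/- replicates 2, 3 or 4 (adjusted p between 0.0557 and 0.0919).

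The eIF4 group, which binds the cap and unwinds the leader of the messenger, had 12 members tested, of which 4 rose and 0 fell, with a median of 0.24. Eif4g3, the less abundant of the genes for the eIF4G scaffold, was at 1393, 971, 1465 and 1638 in WT and 1964, 2981, 2624 and 2628 in Pcx L-/- mice. The rise was 0.90 ± 0.17 (adjusted p = 0.00436), the largest in this group. Eif4g1, the main scaffold gene and the highest of the group in FPKM, was at 11987, 9807, 13065 and 15323 in WT and 12283, 11678, 11414 and 11349 in Pcx L-/- mice, with a change of -0.10 ± 0.15 (adjusted p = 0.652). The Pcx L-/- mice were close together for Eif4g1, and all lay within the range of the WT mice. As a share of the summed FPKM of both genes, Eif4g1 made up 93.0% ± 0.446 in WT and 86.9% ± 2.19 in Pcx L-/- liver (SD, n = 4 mice each). The difference of -6.15 percentage points had p = 0.0286 by an exact two-sided permutation test, the smallest p that 4 mice against 4 allow, and 0.229 after adjustment over 8 paralog pairs. Eif4e, the cap-binding protein, was at 718, 688, 692 and 653 in WT and 853, 929, 957 and 994 in Pcx L-/- mice, a rise of 0.44 ± 0.09 (adjusted p = 0.00655). Its relative Eif4e2, which binds caps without recruiting eIF4G, had a change of 0.18 ± 0.11 (adjusted p = 0.263). The share of Eif4e in the pair was 49.4% ± 3.27 in WT and 54.0% ± 1.44 in Pcx L-/- liver (SD, n = 4 mice each), a difference of 4.53 percentage points that did not pass (exact permutation p = 0.0571, adjusted 0.229). The other 6 pairs had adjusted p of 0.629 or more in the same exact test.

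Among the helicases, Eif4a1, the main eIF4A gene, was at 4762, 4729, 4945 and 5034 in WT and 6014, 5699, 6503 and 6565 in Pcx L-/- mice. Its rise was 0.35 ± 0.11 (adjusted p = 0.0355), and 60.8% of its 100-base stretches also occur in other genes. Eif4a3, a helicase of the exon junction complex, was at 652, 535, 583 and 546 in WT and 657, 719.8, 781 and 808 in Pcx L-/- mice, a rise of 0.35 ± 0.11 (adjusted p = 0.0313). Both changes were small and lost their call in several fits with 1 mouse left out. Eif4a1 did not pass without any 1 of WT replicates 1, 2 or 3 or Pcx L-/- replicates 2, 3 or 4 (adjusted p between 0.0549 and 0.115), and Eif4a3 did not pass without any 1 of WT replicates 2, 3 or 4 or Pcx L-/- replicates 2, 3 or 4 (adjusted p between 0.0508 and 0.102). Eif4a2 had a change of 0.31 ± 0.14 (adjusted p = 0.114) and was called without Pcx L-/- replicate 1 (log2 0.37, adjusted p = 0.0458). Eif4e3, a low-level relative of Eif4e with a partly overlapping gene on the same strand, had 0.47 ± 0.19 (adjusted p = 0.0917) and was likewise called without that mouse (log2 0.56, adjusted p = 0.0404). The helicase cofactors Eif4b and Eif4h, the shuttling protein gene Eif4enif1 and the eIF4G relative Eif4g2 had log2 fold changes between 0.07 and 0.14 and did not pass.

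Of the late-acting initiation genes, Eif5a and Eif6 rose and Eif5, Eif5a2 and Eif5b did not pass, with a median of 0.30. Eif6, which keeps the large ribosomal subunit from joining too early and takes part in its maturation, was at 1146, 1139, 1110.3 and 1509 in WT and 1681, 2340.2, 2048 and 2342 in Pcx L-/- mice. The rise was 0.78 ± 0.14 (adjusted p = 0.00348). Eif5a, which helps ribosomes through sequences that stall peptide bond formation, was at 6029, 5886, 6115 and 5276 in WT and 8109, 8060.3, 8122 and 8687 in Pcx L-/- mice, a rise of 0.50 ± 0.11 (adjusted p = 0.0085). For both genes every Pcx L-/- mouse was above every WT mouse. Eif5, which triggers the release of eIF2 at the start codon, had a change of 0.30 ± 0.13 (adjusted p = 0.118) and was called without Pcx L-/- replicate 1 (log2 0.37, adjusted p = 0.0299). Eif5b, the factor that joins the ribosomal subunits, was at 1109.7, 962, 1187 and 2228 in WT and 1179, 1223, 1289 and 1249 in Pcx L-/- mice, with a change of -0.15 ± 0.22 (adjusted p = 0.666). WT replicate 4 was far above the other 7 mice for Eif5b, and 16.8% of its exonic bases are overlapped by Rev1 on the opposite strand. Eif5a2, the low-level copy of Eif5a, had a change of 0.08 ± 0.39 (adjusted p = 0.901).

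In elongation, the eEF1B subunits rose, whereas the far more abundant Eef1a1 and Eef2 did not pass, so that 3 of 4 eEF1 genes tested rose with a median of 0.58. Eef1g, the structural subunit of eEF1B, was at 2531, 2679.7, 2726 and 2327 in WT and 3873, 4787, 5108 and 5377 in Pcx L-/- mice, a rise of 0.90 ± 0.13 (adjusted p = 0.00117). Eef1b2, a catalytic subunit, was at 2223, 2448, 2184 and 1765 in WT and 3501, 3762, 3946 and 4287 in Pcx L-/- mice, a rise of 0.85 ± 0.13 (adjusted p = 0.00136). Of Eef1g, 49.4% of the 100-base stretches also occur in other genes. Eef1d, the other catalytic subunit, was at 1278, 1247, 1249 and 1389.9 in WT and 1457, 1559, 1596 and 1805 in Pcx L-/- mice, a rise of 0.31 ± 0.10 (adjusted p = 0.04). This call was lost without any 1 of WT replicates 1, 2 or 3 or Pcx L-/- replicates 2, 3 or 4 (adjusted p between 0.0796 and 0.139). Eef1a1 was at 73115, 87247, 72656 and 75999 in WT and 88934, 89109, 94644 and 96767 in Pcx L-/- mice. All Pcx L-/- mice were above all WT mice, although WT replicate 2 came close, and the change of 0.26 ± 0.15 did not pass (adjusted p = 0.226). With DESeq2 it passed (log2 0.25, adjusted p = 0.0357), and 26.7% of its 100-base stretches occur in other genes. Eef2 was at 31202, 35289.7, 30418 and 47358 in WT and 35255, 40968, 39859.6 and 41224 in Pcx L-/- mice, with a change of 0.12 ± 0.17 (adjusted p = 0.632). WT replicate 4 was the highest of the 8 mice for Eef2.

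Enzymes that modify the elongation factors are low in liver, and 2 of the 4 tested rose, with a median of 0.43. Eef1akmt1, a lysine methyltransferase of eEF1A, was at 90.1, 72.6, 65.6 and 69.6 in WT and 134, 150.4, 125 and 202 in Pcx L-/- mice, a rise of 1.03 ± 0.19 (adjusted p = 0.00356). Eef2kmt, which methylates eEF2, was at 99.2, 91.0, 118 and 84.9 in WT and 135, 179, 194 and 176 in Pcx L-/- mice, a rise of 0.79 ± 0.16 (adjusted p = 0.00574). Both were separate between genotypes, but 20.2% of the 100-base stretches of Eef2kmt occur in other genes and 23.0% of its exonic bases are overlapped on the opposite strand. Eef2k, the kinase that switches eEF2 off, and Eef1akmt2 had changes of 0.06 ± 0.16 and -0.00 ± 0.19 and did not pass.

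In every role group but eEF2, the mean level of each Pcx L-/- mouse was above that of every WT mouse. Relative to the WT mean, the mean log2 level of the members tested was -0.03, -0.03, 0.00 and 0.06 in WT replicates 1 to 4. In Pcx L-/- replicates 1 to 4 it was 0.28, 0.50, 0.46 and 0.58, lowest in replicate 1, whose hepatocyte markers were also the closest to WT. Replicate 1 had the lowest normalized count of the 4 Pcx L-/- mice for 29 of the 34 members that rose. Without it 37 members were called higher and 0 lower, and without WT replicate 4 the numbers were 35 and 0. Without Pcx L-/- replicate 4, 23 were called higher and 0 lower. The hepatocyte markers and the red blood cell genes moved with the mice as given above, and their part in the result was not tested. Mouse numbers were in the 500s for WT replicates 1 and 2 and Pcx L-/- replicate 1, and in the 800s for the others. The labels do not say what the numbers stand for. Among Pcx L-/- mice, replicate 1 and the number series therefore cannot be told apart. With the series as a term, 33 members were higher and 0 lower. Among mice with numbers in the 800s alone (2 WT and 3 Pcx L-/-), 31 were higher and 0 lower. Eef1d, Eif2b5, Eif2d, Eif3i and Eif4a1 did not pass there (adjusted p between 0.0518 and 0.091), whereas Eif4a2 and Eif4e3 did, and the 500s held 1 Pcx L-/- mouse and gave no value.

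**Figure D4:**
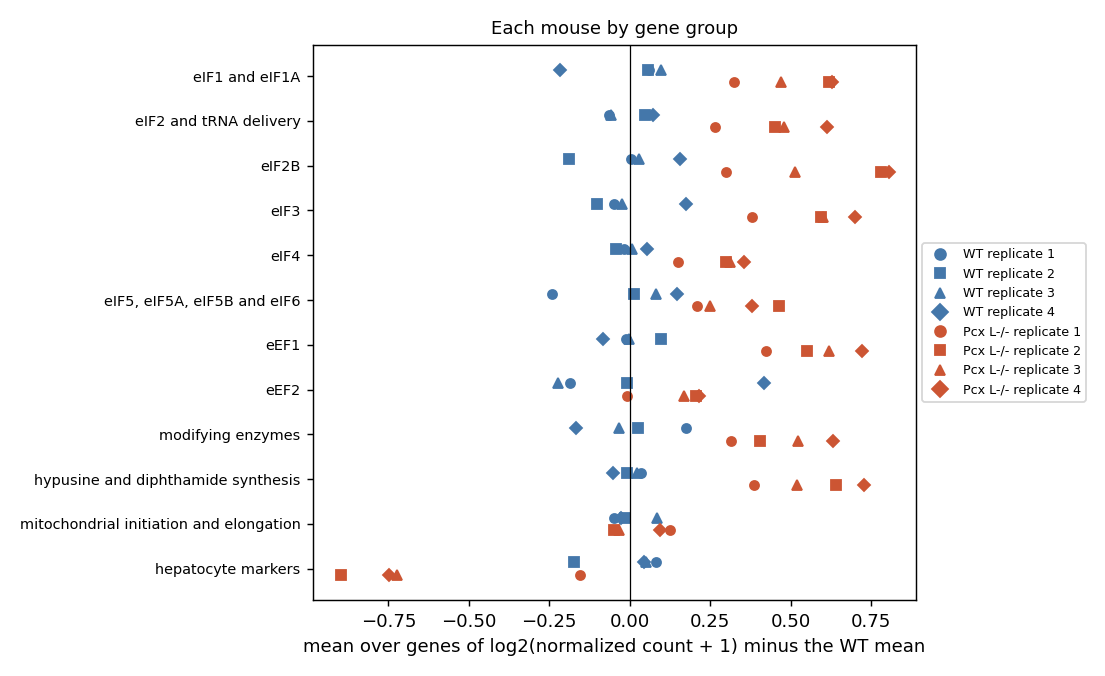
Mean over the genes of a group of log2(normalized count + 1), minus the WT mean (x axis), for each role group, 2 other pathway lists and the hepatocyte markers, with 1 symbol per mouse (4 WT in blue, 4 Pcx L-/- in red). For all groups of factors except eEF2 the Pcx L-/- mice lie to the right of the WT mice, the mitochondrial factors overlap, and the hepatocyte markers lie lower in 3 of the 4 Pcx L-/- mice than in WT.

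Of 46 genes that act with or on the factors, 16 rose and 4 fell, beside 14.1% and 13.5% of all genes tested. Their 6 lists were chosen with earlier results of these data known, so these counts are descriptions only. Without Pcx L-/- replicate 2 or replicate 4, 8 rose, and without WT replicate 3, 9 rose. With each mouse left out in turn, 9 of the 20 calls stayed, those of Gspt2, Mknk1, Pabpc1, Pabpc4, Pdcd4, Dph1, Dph5, Dph6 and Eef1e1. Enzymes that make hypusine on eIF5A and diphthamide on eEF2 rose in 5 of 9 cases and fell in 0, with a median of 0.48. Dph6, of the last step of diphthamide synthesis, was at 107, 105, 84.9 and 110.3 in WT and 188, 231, 242 and 291 in Pcx L-/- mice, a rise of 1.22 ± 0.16 (adjusted p = 0.000835). Dph1, Dph2 and Dph5, of earlier steps, rose by 0.59 ± 0.14, 1.04 ± 0.28 and 0.88 ± 0.16 (adjusted p = 0.0102, 0.0201 and 0.003). Dohh, the hydroxylase that completes hypusine, rose by 0.38 ± 0.11 (adjusted p = 0.0265). Dph2 did not pass without any 1 of WT replicate 3 or Pcx L-/- replicates 2 or 4, nor did Dohh without any 1 of WT replicates 1, 2 or 3 or Pcx L-/- replicates 2, 3 or 4. None of the 6 mitochondrial initiation and elongation factors passed in either direction, and their log2 fold changes were between -0.17 and 0.24.

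**Figure D5:**
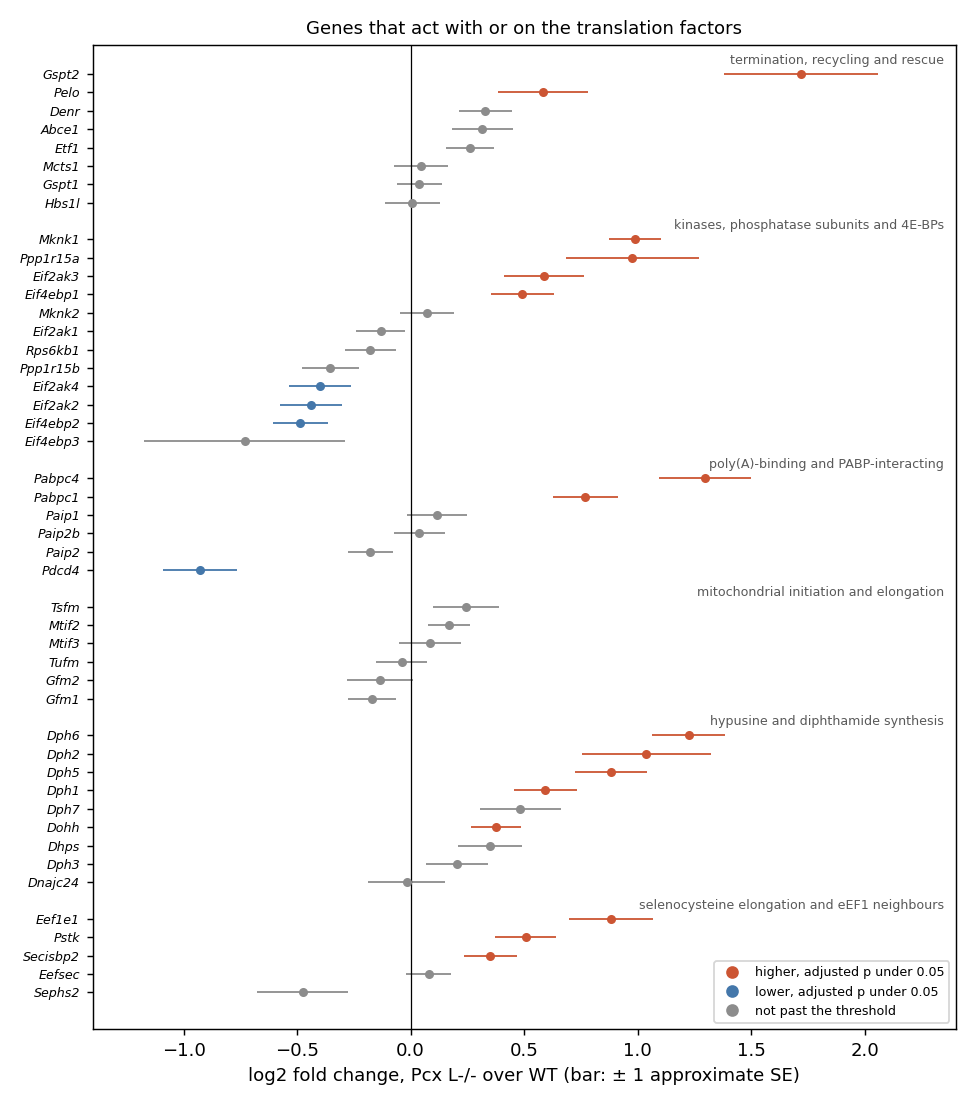
Log2 fold change (x axis, Pcx L-/- over WT, with bars of 1 approximate standard error) of the 46 genes of 6 lists that act with or on the translation factors, with red points for higher and blue points for lower at an adjusted p under 0.05 by edgeR and grey points otherwise (n = 4 mice per genotype). Gspt2 is the highest at 1.72 and Pdcd4 the lowest at -0.93.

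The genes that act on eIF2 or on the cap-binding complex moved in both directions. Of 12 kinases, phosphatase subunits and eIF4E-binding proteins 4 rose and 3 fell. These 12 include the kinases and phosphatase subunits of eIF2, which are given in the next paragraph. Of 6 poly(A)-binding and interacting genes 2 rose and 1 fell. Pdcd4, an inhibitor that binds eIF4A, was at 1108, 1099.8, 1015 and 1507 in WT and 804, 527, 582 and 572 in Pcx L-/- mice, a fall with a log2 fold change of -0.93 ± 0.16 (adjusted p = 0.00276). Mknk1, a kinase that phosphorylates eIF4E, was at 366, 312, 311 and 256 in WT and 607, 614, 628 and 633 in Pcx L-/- mice, a rise of 0.99 ± 0.11 (adjusted p = 0.000588). Of the eIF4E-binding proteins that block assembly with eIF4G, Eif4ebp1 rose by 0.49 ± 0.14 (adjusted p = 0.024) and Eif4ebp2 fell, with a log2 fold change of -0.49 ± 0.12 (adjusted p = 0.0129). The poly(A)-binding proteins that close the messenger into a loop through eIF4G were also higher. Pabpc1 rose by 0.77 ± 0.14 (adjusted p = 0.00382) and Pabpc4 by 1.30 ± 0.20 (adjusted p = 0.00162). Eif4ebp1 did not pass without any 1 of WT replicate 3 or Pcx L-/- replicates 2 or 4, and Eif4ebp2 did not pass without Pcx L-/- replicate 4.

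Among the kinases that phosphorylate eIF2, Eif2ak3 (PERK) was higher, Eif2ak2 (PKR) and Eif2ak4 (GCN2) were lower, and Eif2ak1 did not pass. Their log2 fold changes were 0.59 ± 0.18, -0.44 ± 0.14, -0.40 ± 0.14 and -0.13 ± 0.11 (adjusted p = 0.0305, 0.0337, 0.0491 and 0.403). Ppp1r15a, the inducible subunit of the phosphatase that reverses this phosphorylation, rose by 0.98 ± 0.29 (adjusted p = 0.0295). With single mice left out, the call of Eif2ak3 was lost without any 1 of WT replicates 1, 2 or 3 or Pcx L-/- replicates 2, 3 or 4, that of Eif2ak2 without any 1 of WT replicates 1, 2 or 4 or Pcx L-/- replicates 2, 3 or 4, that of Eif2ak4 without any 1 of WT replicates 2, 3 or 4 or Pcx L-/- replicates 1, 2, 3 or 4 and that of Ppp1r15a without any 1 of WT replicates 1, 2, 3 or 4 or Pcx L-/- replicates 2 or 4. In termination and rescue, 2 of 8 genes rose and 0 fell. Gspt2, a low-level form of the release factor eRF3, was at 5.46, 16.3, 9.67 and 11.9 in WT and 31.1, 26.7, 44.3 and 38.7 in Pcx L-/- mice, a rise of 1.72 ± 0.34 (adjusted p = 0.00485). Its WT counts lay near the filter's minimum count of 10 and its Pcx L-/- counts above it. Its entry into the test thus leaned on the Pcx L-/- mice. The abundant form Gspt1 had a change of 0.04 ± 0.10 and did not pass. Pelo, which frees stalled ribosomes, rose by 0.58 ± 0.20 (adjusted p = 0.0487), a call lost without any 1 of WT replicates 1, 2, 3 or 4 or Pcx L-/- replicates 2, 3 or 4. In the list of selenocysteine elongation and neighbours of eEF1, 3 of 5 genes rose: Eef1e1, a scaffold of the tRNA synthetase complex, by 0.88 ± 0.18, Pstk by 0.51 ± 0.14 and Secisbp2 by 0.35 ± 0.12 (adjusted p = 0.00614, 0.0184 and 0.0434). Pstk did not pass without any 1 of Pcx L-/- replicates 2 or 4, and Secisbp2 did not pass without any 1 of WT replicates 1, 2, 3 or 4 or Pcx L-/- replicates 2, 3 or 4.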

How the data were processed

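The authors prepared total RNA from flash-frozen liver, a company made and sequenced the libraries, and the reads were aligned to mm10 (GRCm38). They deposited raw read counts per Ensembl gene and FPKM values, and the submitters' processing notes name STAR 2.5, HTSeq 0.6.1 and DESeq2. Neither the strand setting nor the annotation release used in counting was given in the sources used here. The deposited FPKM equal count over library total and a single length per gene within a relative tolerance of 1e-06. That length was derived from the FPKM themselves and was not compared with annotated gene lengths.

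Here, edgeR 4.0.16 (R 4.3.3) was run on the counts with TMM factors, filterByExpr (minimum count 10, minimum total 15), a design of genotype alone and the quasi-likelihood F test. P-values were adjusted by Benjamini-Hochberg over 13168 genes. Approximate standard errors are the log2 fold change over the root of the F statistic, and the biological coefficient of variation was 0.181. Steps were tested on simulated counts, drawn for each gene separately with a common dispersion, a simpler setting than these data. This checks the steps and not the results. The mice of a genotype are separate animals. The members and gene lists were chosen with earlier results of these data known. Per-mouse values are given for each member past the threshold and for the highest and the most changed member of each role group. Paralog shares were compared in FPKM by exact permutation (scipy 1.17.1). Shared sequence was counted as 100-base stretches of the longest transcript of GENCODE M21 found in other genes. Alternatives included DESeq2 1.42.0, limma 3.58.1 on log2(FPKM + 1) and log2(FPKM + 0.1), other scalings and filters, and each mouse left out.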

Additional observations from a re-analysis of the deposited data

Results flagged for a closer look

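In each genotype, a mouse was noted where its gap to the nearest of the other 3, divided by the range of the group, exceeded Dixon's critical value for 4 samples at the 95% level for a member. This held for 9 of 112 groups of 4 mice, and chance alone marks about 1 in 20. WT replicate 4, the library with the fewest reads, stood apart for 6 members. It was low for Eif1 (ratio 0.905), at 3126 normalized counts beside 6315 to 6651 in the other WT mice. It was high for Eif3g (0.966), Eif6 (0.91), Eif4h (0.875), Eif3l (0.866) and Eif3c (0.831). For Eif3g it was at 1195 beside 959.5 to 968 in the others. WT replicate 2 was high for Eif2a (0.8295), at 759.6 beside 682 to 695. Pcx L-/- replicate 1 was low for Eif3a (0.906), at 4000 beside 5389.9 to 5534. Pcx L-/- replicate 4 was high for Eif5a (0.902), at 8687 beside 8060.3 to 8122.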

How the results depend on the processing

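No called member changed sign, and 0 members were called lower in any of the 20 alternatives. The number called higher ran from 23 (without Pcx L-/- replicate 4) to 47 (library size only), and 23 of the 34 were called in every alternative. Of the 22 members not called, 14 were called in at least 1 alternative, 13 of them with library size only and 11 with limma on FPKM (45 higher with either pseudocount). Without a composition factor the whole table moves up: the median change over all genes becomes 0.28 (log2), and 81.8% of calls are higher beside 51.1% with TMM (82.3% with limma on log2(FPKM + 1), 82.1% with 0.1). The same settings moved the counts in the other pathway lists, where 28 genes rose and 1 fell with library size only, and 27 rose and 1 fell with limma at either pseudocount. With each mouse left out, the pathway genes that rose ran from 8 to 19 and those that fell from 1 to 5, and the calls over all genes from 2109 to 4602. Replicate numbers do not pair the mice (correlations of deviations between -0.131 and 0.101, and 2 of 8 mice closest to their own number). With the replicate block 27 members rose, 2 pathway genes fell and 2975 genes were called in all. Totals of 12016242 to 20023108 reads limit what can be said of low members such as Eif5a2 and Eif3j2.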
